A study of Mus musculus with 8 samples.

Results

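The nuclear genome encodes most protein subunits of the mitochondrial respiratory chain, and 89 of 21631 protein-coding genes on chromosomes 1 to 19 and X were taken here as its subunit genes. They were chosen by symbol: the Ndufa, Ndufb, Ndufc, Ndufs and Ndufv genes of complex I without the Ndufaf assembly factors, Sdha to Sdhd of complex II, the Uqcr genes of complex III, Cox4i, Cox5, Cox6, Cox7 and Cox8 genes of complex IV, the Atp5 genes of complex V, and Cycs. No measured value is part of this rule, but the rule was chosen with earlier results of these data known. The rule by symbol leaves out Cyc1, a subunit of complex III, which is counted below with the assembly factors.

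Complexes I and II pass electrons from NADH and succinate to ubiquinone, complex III passes them on to cytochrome c (encoded by Cycs), and complex IV passes them to oxygen. Complexes I, III and IV pump protons across the inner membrane, and complex V, the ATP synthase, uses the gradient to make ATP. The chain is the main consumer of oxygen in most cells, and microglia, the macrophages of the brain, are known to shift between respiration and glycolysis when activated. The promoters of many subunit genes are known targets of the transcription factors NRF1, GABPA (an ETS factor, also called NRF2) and YY1.

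Open chromatin was mapped in BV2 cells, an immortalised mouse microglial line. The assay was ATAC-seq, which relies on Tn5 transposase cutting accessible DNA and tagging the fragments for sequencing. The 4 groups were BV2 monoculture in normoxia (21% oxygen), BV2 monoculture in hypoxia (under 0.1% oxygen), and BV2 cells seeded onto GL261 mouse glioma cells and kept in normoxia or in hypoxia. Each incubation lasted 16 h, each group had 2 biological replicates, and all libraries were made from formaldehyde-fixed cells sorted for CD45, the surface protein encoded by Ptprc. The sort is the only step named that separates BV2 from GL261 cells in co-culture.

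Each library came with its own peak list. The lists held 13333 and 9910 peaks in normoxic monoculture, 24370 and 26339 in hypoxic monoculture, 21790 and 21826 in normoxic co-culture, and 29658 and 21633 in hypoxic co-culture. Read totals were not used here, so read depth is not known, and list length does not stand for it. A missing peak means that none passed the authors' threshold in that library. A gene was counted as having a peak where at least 1 bp of a peak lay within 1 kb of either gene end. Ptprc had a peak in all 8 libraries. Of the 12 microglia and macrophage markers, 3 and 2 had a peak in normoxic monoculture and 7 or 8 in every other library, and Aif1, Itgam and Csf1r had none in any. Of 12 glioma and glial markers, none had a peak in the monoculture libraries, 2 and 0 had one in normoxic co-culture and 2 and 2 in hypoxic co-culture. These were Sox2 in 3 libraries, Nes in 2 and S100b in 1, while 9 markers, Gfap, Olig2 and Sox9 among them, had none in any library. In lists reduced to equal length, described below, 2 to 4 microglia and macrophage markers had a peak in each library, normoxic monoculture included, and none of the glioma and glial markers had one in any. The part of either marker list in the results was not tested.

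Respiratory chain genes had a peak more often than protein-coding genes at large in every library. In normoxic monoculture 41 and 39 of the 89 genes had one (46.1% and 43.8%), against 26.4% and 21.8% of all protein-coding genes. In hypoxic monoculture the counts were 59 and 64 (66.3% and 71.9%, against 36.9% and 37.1%). In normoxic co-culture they were 67 and 70 (75.3% and 78.7%, against 39.4% and 41.6%), and in hypoxic co-culture 73 and 67 (82.0% and 75.3%, against 44.4% and 41.9%). Both normoxic monoculture libraries were below all other libraries, and their lists were also the shortest. The group means were 40 ± 1.41, 61.5 ± 3.54, 68.5 ± 2.12 and 70 ± 4.24 genes (SD, n = 2 each). With 2 libraries against 2 the smallest two-sided exact permutation p is 0.33. No p is given for these counts, since the genes were chosen with earlier results of these data known.

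When every list was reduced to its 9910 strongest peaks by −log10 p, the length of the shortest list, the order of the groups changed. Then 35 and 39 genes had a peak in normoxic monoculture, 31 and 30 in hypoxic monoculture, 46 and 47 in normoxic co-culture, and 44 and 53 in hypoxic co-culture. All 4 co-culture libraries were above all 4 monoculture libraries, and hypoxic monoculture moved from above normoxic monoculture to below it. All protein-coding genes moved in the same way, with 22.1% and 21.8%, 19.3% and 17.5%, 24.6% and 27.6%, and 24.3% and 28.9% in the same order. The larger number of subunit genes with a peak in hypoxic than in normoxic monoculture was therefore present in the lists as deposited and absent at equal list length. Reduced lists hold the same number of peaks by construction. A difference in list length alone and a gain of peaks at many sites therefore cannot be told apart. A pool of cells also cannot show whether a site was open in fewer cells or less open in each: the 2 cannot be told apart here.

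**Figure D1:**
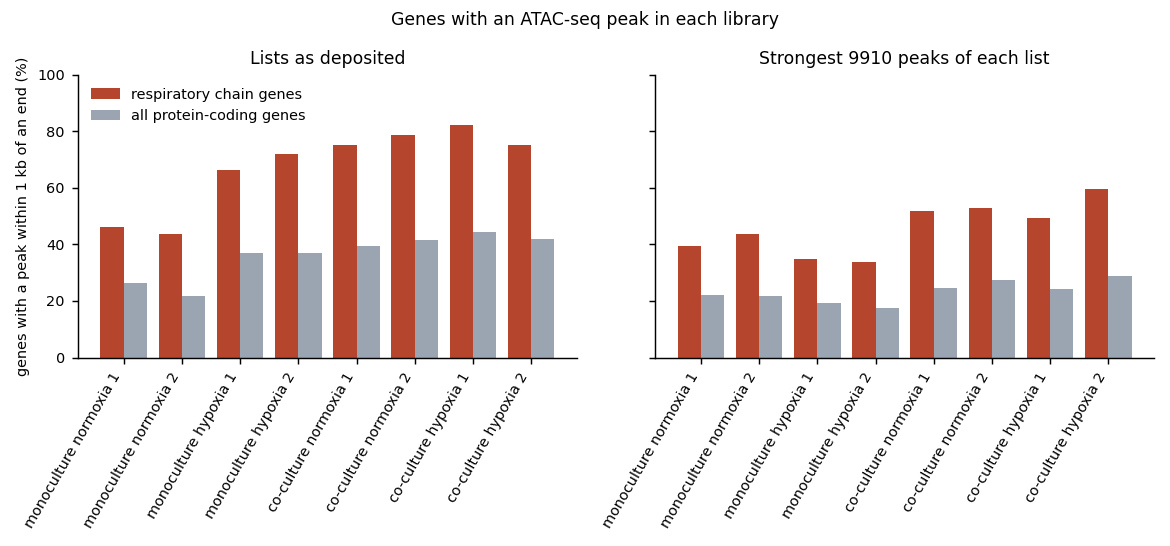
Share of genes with a peak within 1 kb of an end (vertical axis, %) in each of the 8 libraries, for the 89 respiratory chain genes and for all 21631 protein-coding genes, with the lists as deposited (left) and reduced to 9910 peaks (right). The respiratory chain genes are above all genes in every library, and the hypoxic monoculture libraries fall from 66.3% and 71.9% to 34.8% and 33.7% when the lists are cut to the same length.

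Across the libraries, 31 of the 89 genes (34.8%) had a peak in all 8, against 17.6% of all protein-coding genes. A further 45 had a peak in some libraries, 25 of them in 6 or 7, and 13 (14.6%) had none, against 50.3% of all genes. Replicates of a group agreed for most genes: a peak in 1 replicate alone was seen for 14 genes in normoxic monoculture, 13 in hypoxic monoculture, 7 in normoxic co-culture and 10 in hypoxic co-culture. Absence from both replicates counts here as agreement. In normoxic monoculture 33 genes had a peak in both replicates and 42 in neither. The same counts over all genes are not given here. In the reduced lists 19 genes had a peak in all 8 libraries, against 11.1% of all genes.

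The rank of a gene's best peak was given as a percentile of the −log10 p values in its own list, where 100 is the strongest peak. The median percentile of the respiratory chain genes with a peak was 56.2 and 60.8 in normoxic monoculture, 60.2 and 60.6 in hypoxic monoculture, 72.5 and 68.7 in normoxic co-culture and 72.6 and 72.3 in hypoxic co-culture. The medians over all protein-coding genes with a peak were 61.1 and 61.9, 61.7 and 59.9, 67.4 and 70.3, and 71.3 and 73.0. The mean difference over the 8 lists was −0.345 points, with a pooled SD between replicates of 2.92, and it depended on the measure: 6.32 when peaks were ranked by fold enrichment and −7.31 in lists of equal length. Both of these exceed the SD, in opposite directions, so no direction in rank is read from them. Percentiles come from lists of different length, so no difference in percentile between libraries is read below as a change in accessibility.

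**Figure D2:**
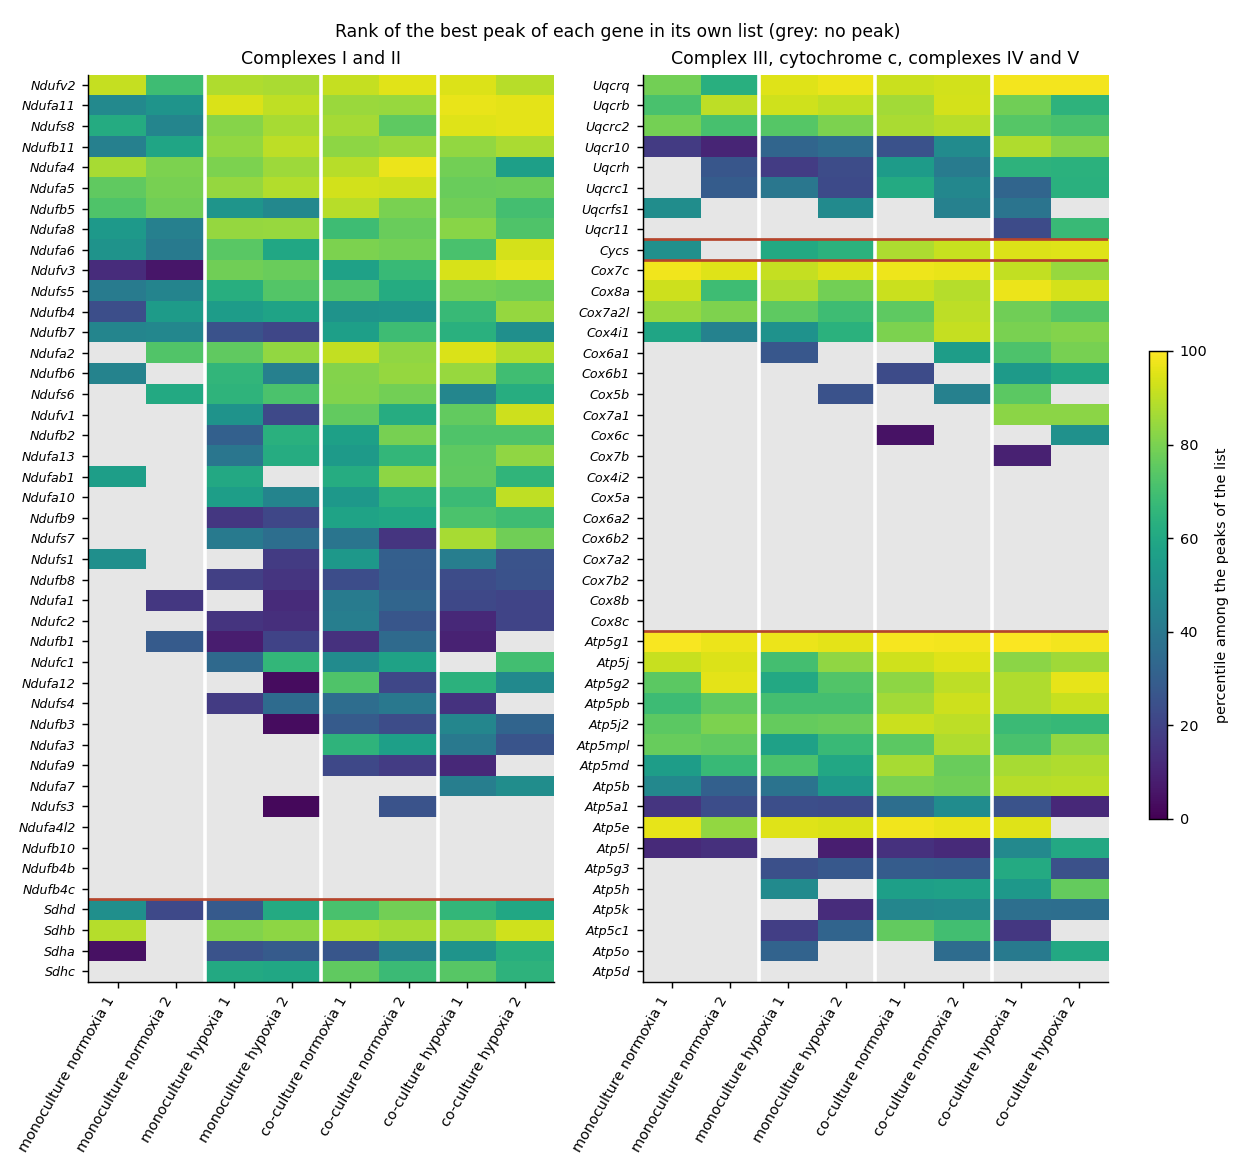
Percentile of the best peak of respiratory chain genes (rows, by complex) in each library (columns), from 0 for the weakest to 100 for the strongest peak of the list, with grey where the gene had no peak within 1 kb of an end. Complex I has its grey cells mostly in the 2 normoxic monoculture columns, and complex IV has 8 rows that are grey in all 8 libraries.

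The promoters shown next are those of genes on which the results below turn. Each runs from 250 bases before the gene start through the first 50 bases of the gene, 5′ to 3′ along the gene, from RefSeq on GRCm38.p6 (72 of the 89 genes had an entry in the promoter table). Capitals mark matches on either strand to the core of the NRF1 motif, to the ETS and YY1 letters given below, and to ACGTG, the core of the hypoxia response element (HRE) bound by hypoxia-inducible factors. Cox7a1 (chr7:30183921-30184220, plus strand), Uqcr11 (chr10:80406772-80407071, minus strand) and Ndufa7 (chr17:33824322-33824621, plus strand) had a peak in hypoxic co-culture alone, and Ndufa3 (chr7:3617123-3617422, plus strand) in both co-cultures. Cox7a2 (chr9:79759804-79760103, minus strand) is the counterpart of Cox7a1 in most tissues, and Cycs (chr6:50566520-50566819, minus strand) and Atp5j (chr16:84834927-84835226, minus strand) hold NRF1 cores. The last 3 were added after their values or letters had been seen.
Cox7a1: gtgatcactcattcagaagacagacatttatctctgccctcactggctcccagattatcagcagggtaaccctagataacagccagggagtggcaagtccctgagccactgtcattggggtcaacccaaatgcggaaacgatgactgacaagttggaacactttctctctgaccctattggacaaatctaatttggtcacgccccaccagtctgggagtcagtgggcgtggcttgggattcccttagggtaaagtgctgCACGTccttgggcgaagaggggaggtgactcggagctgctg
Cox7a2: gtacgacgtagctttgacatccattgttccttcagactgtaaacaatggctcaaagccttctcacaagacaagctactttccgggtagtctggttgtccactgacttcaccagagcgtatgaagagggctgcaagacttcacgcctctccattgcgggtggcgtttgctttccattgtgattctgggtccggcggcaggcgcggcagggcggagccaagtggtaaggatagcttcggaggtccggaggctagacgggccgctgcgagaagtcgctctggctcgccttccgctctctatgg
Uqcr11: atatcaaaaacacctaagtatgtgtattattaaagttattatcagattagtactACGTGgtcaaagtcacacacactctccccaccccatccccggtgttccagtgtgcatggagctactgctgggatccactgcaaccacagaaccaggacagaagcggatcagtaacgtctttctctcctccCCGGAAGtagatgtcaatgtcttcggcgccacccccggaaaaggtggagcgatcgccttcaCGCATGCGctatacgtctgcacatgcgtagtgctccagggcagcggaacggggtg
Ndufa3: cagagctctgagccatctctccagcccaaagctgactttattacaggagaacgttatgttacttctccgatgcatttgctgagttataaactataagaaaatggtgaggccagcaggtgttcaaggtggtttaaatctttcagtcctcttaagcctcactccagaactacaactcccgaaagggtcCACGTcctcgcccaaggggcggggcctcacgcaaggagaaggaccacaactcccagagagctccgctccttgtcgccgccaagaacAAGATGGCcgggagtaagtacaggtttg
Ndufa7: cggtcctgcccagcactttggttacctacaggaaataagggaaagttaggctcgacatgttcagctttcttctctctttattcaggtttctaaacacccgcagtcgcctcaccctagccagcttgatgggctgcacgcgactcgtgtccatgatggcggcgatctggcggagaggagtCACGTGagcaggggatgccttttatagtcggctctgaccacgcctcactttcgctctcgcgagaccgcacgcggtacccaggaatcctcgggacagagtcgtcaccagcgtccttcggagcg
Cycs: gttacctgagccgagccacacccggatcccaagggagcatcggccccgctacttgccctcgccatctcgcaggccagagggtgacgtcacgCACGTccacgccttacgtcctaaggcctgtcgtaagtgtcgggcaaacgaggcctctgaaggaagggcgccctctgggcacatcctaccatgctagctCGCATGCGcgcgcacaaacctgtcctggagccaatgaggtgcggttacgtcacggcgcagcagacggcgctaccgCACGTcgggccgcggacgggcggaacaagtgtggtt
Atp5j: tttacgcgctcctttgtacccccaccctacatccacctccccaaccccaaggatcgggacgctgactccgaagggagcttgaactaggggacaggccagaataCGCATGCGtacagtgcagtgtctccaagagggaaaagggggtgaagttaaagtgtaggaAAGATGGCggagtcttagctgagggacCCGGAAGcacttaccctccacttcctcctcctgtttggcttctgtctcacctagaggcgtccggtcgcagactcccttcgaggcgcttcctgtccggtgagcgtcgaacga

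Complex I, the NADH dehydrogenase, is the largest complex and supplied 41 genes, of which 13 had a peak in every library, 24 in some and 4 in none. Its genes with a peak numbered 17 and 17 in normoxic monoculture, 29 and 33 in hypoxic monoculture, 35 and 36 in normoxic co-culture, and 35 and 33 in hypoxic co-culture. Both normoxic monoculture libraries thus lay below all 6 others, as they did over all protein-coding genes. At equal list length the counts were 15 and 17, 15 and 14, 22 and 24, and 21 and 23, with both monocultures below both co-cultures, again as over all genes. The gene whose lowest percentile was highest was Ndufa5, with 75.8 and 79.4 in normoxic monoculture, 84.4 and 88.5 in hypoxic monoculture, 93.3 and 92.2 in normoxic co-culture and 77.1 and 77.7 in hypoxic co-culture. Ndufv2, one of the flavoprotein subunits next to the NADH site, was also in every library (69.1 to 95.3). The other complex I genes with a peak in every library, beside those described next, were Ndufs8 (45.6 to 95.7), Ndufb11 (43.5 to 89.96), Ndufb5 (46.8 to 89.2), Ndufa8 (43.6 to 84.8), Ndufa6 (41.1 to 93.6), Ndufs5 (41.8 to 79.3), Ndufb4 (23.9 to 84.3) and Ndufb7 (21.4 to 69.1). At Ndufa8 and Ndufb6 some of the best peaks lay at the far end of the gene, at a neighbour. Ndufa2, Ndufb6 and Ndufs6 had a peak in 7 libraries and lacked it in 1 of normoxic monoculture. Ndufab1, the mitochondrial acyl carrier protein, had a peak in 6 (56.2 to 83.2), as did Ndufs1, which carries several iron-sulfur clusters (17.3 to 53.3), Ndufa1 (12.4 to 41.5) and Ndufb1 (8.02 to 34.5). Ndufs3 had weak peaks in 2 (2.17 to 25.5).

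Some complex I genes had a peak in every library but at very different ranks. Ndufv3 had percentiles of 12.6 and 6.23 in normoxic monoculture, 78.3 and 77.0 in hypoxic monoculture, 57.2 and 67.4 in normoxic co-culture and 93.9 and 96.4 in hypoxic co-culture. Ndufa11 had 47.0 and 51.6 in normoxic monoculture, 94.2 and 90.6 in hypoxic monoculture, 85.0 and 84.6 in normoxic co-culture and 96.7 and 95.8 in hypoxic co-culture. For both genes the normoxic monoculture peaks ranked lowest and the hypoxic co-culture peaks highest. The Ndufa11 summits lay 488 to 678 bp before its start, in a window shared with an end of Vmac.

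Ndufa4 and its paralog Ndufa4l2 are grouped here by symbol. The NDUFA4 protein has since been assigned to complex IV, and Ndufa4l2 is a known target of hypoxia-inducible factor. Ndufa4 had a peak in all 8 libraries, at 87.1 and 80.1 in normoxic monoculture, 80.4 and 85.3 in hypoxic monoculture, 89.3 and 97.2 in normoxic co-culture and 78.7 and 56.6 in hypoxic co-culture. Ndufa4l2 had no peak within 1 kb of its ends in any library. Over the whole gene a peak was found in each of the 4 co-culture libraries, at 48.1 and 40.8 in normoxia and 32.9 and 40.6 in hypoxia, and in no monoculture library, in normoxia or hypoxia. It had a peak in 0 of the 8 libraries at equal list length. The search over whole genes was added after the data had been seen. The share of all genes with such a pattern in that search is not given here. The other complex I genes without a peak at an end were Ndufb10 and the Ndufb4 copies Ndufb4b and Ndufb4c. A window of 2 kb took in a peak for Ndufb10 in 3 libraries.

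Complex II, succinate dehydrogenase, has 4 subunits and also works in the citric acid cycle. Its flavoprotein gene Sdha had percentiles of 4.43 in replicate 1 of normoxic monoculture, 25.5 and 28.5 in hypoxic monoculture, 26.7 and 44.3 in normoxic co-culture and 51.9 and 62.8 in hypoxic co-culture. The iron-sulfur subunit gene Sdhb had 88.7 in replicate 1 of normoxic monoculture, 81.1 and 83.0 in hypoxic monoculture, 88.9 and 86.9 in normoxic co-culture and 86.1 and 92.8 in hypoxic co-culture. Neither had a peak in replicate 2 of normoxic monoculture, the shortest list. Of the membrane anchors, Sdhc had 60.8 and 59.5 in hypoxic monoculture, 75.7 and 68.3 in normoxic co-culture and 73.9 and 64.8 in hypoxic co-culture. Sdhc had no peak in normoxic monoculture, while Sdhd had one in every library, at 49.7 and 22.0 in normoxic monoculture, 28.2 and 61.3 in hypoxic monoculture, 71.3 and 78.7 in normoxic co-culture and 66.3 and 59.8 in hypoxic co-culture.

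Complex III, the cytochrome bc1 complex, supplied 8 genes, with 4 in every library and none without a peak. The counts were 5 and 6 in normoxic monoculture, 6 and 7 in both hypoxic monoculture and normoxic co-culture, and 8 and 7 in hypoxic co-culture. Uqcrc2, which encodes a core subunit, had the highest minimum, with 79.0 and 70.7 in normoxic monoculture, 73.5 and 80.2 in hypoxic monoculture, 87.1 and 89.3 in normoxic co-culture and 73.6 and 71.3 in hypoxic co-culture. Uqcrb (64.6 to 93.4), Uqcrq (63.2 to 98.3) and Uqcr10 (10.4 to 87.9) were the other 3 in every library. Uqcrh (17.6 to 64.8) and Uqcrc1, the other core subunit (22.3 to 63.3), had a peak in 7. Uqcrfs1, the Rieske iron-sulfur protein that passes electrons to cytochrome c1, had a peak in 1 library of each group (38.5 to 49.0). Cycs, the electron carrier between complexes III and IV, had a peak in 7, at 50.3 in replicate 1 of normoxic monoculture, 60.6 and 64.1 in hypoxic monoculture, 87.7 and 91.6 in normoxic co-culture and 94.6 and 95.3 in hypoxic co-culture. All its co-culture values were above all its monoculture values.

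Complex IV, cytochrome c oxidase, had the lowest share of genes with a peak. It supplied 18 genes, of which 4 had a peak in every library, 6 in some and 8 in none. Its genes with a peak were 4 and 4 in normoxic monoculture, 5 and 5 in hypoxic monoculture, 6 and 6 in normoxic co-culture, and 9 and 8 in hypoxic co-culture (22.2%, 27.8%, 33.3% and a mean of 47.2%). No 2 of these groups overlapped, and the shares of all protein-coding genes given above followed the same order, also without overlap. With peaks at the promoter table starts of Cox5a and Cox7a2, described below, the complex IV counts were 5 and 6, 6 and 6, 8 and 8, and 11 and 10, so that the monocultures were not separate from each other. At equal list length the counts were 4 and 4, 3 and 4, 4 and 5, and 7 and 7 in the same order, or 5 and 6, 4 and 5, 5 and 6, and 8 and 9 with those starts. Hypoxic co-culture was above all other libraries in each of these 4 counts. Over all genes at equal length the hypoxic co-culture shares, 24.3% and 28.9%, lay on either side of the normoxic co-culture ones. The difference between complex IV and all genes was not tested.

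The 4 complex IV genes with a peak in every library were Cox7c, Cox8a, Cox7a2l and Cox4i1. Cox7c had 97.8 and 95.2 in normoxic monoculture, 91.4 and 94.7 in hypoxic monoculture, 97.3 and 96.8 in normoxic co-culture and 90.6 and 84.8 in hypoxic co-culture, the highest minimum of the complex. Cox8a, the ubiquitous form of subunit 8, had 92.4 and 68.8 in normoxic monoculture, 87.7 and 78.6 in hypoxic monoculture, 91.9 and 88.7 in normoxic co-culture and 97.0 and 93.7 in hypoxic co-culture. Cox7a2l, known for its role in joining complexes III and IV into supercomplexes, had 84.7 and 80.6 in normoxic monoculture, 75.4 and 68.9 in hypoxic monoculture, 75.1 and 89.9 in normoxic co-culture and 78.4 and 73.1 in hypoxic co-culture. Cox4i1, the main form of subunit 4, had 58.7 and 44.4 in normoxic monoculture, 50.8 and 63.9 in hypoxic monoculture, 80.4 and 91.1 in normoxic co-culture and 79.7 and 81.6 in hypoxic co-culture, with all co-culture values above all monoculture values.

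Several subunits of complex IV exist as alternative forms from separate genes. Of the genes for tissue-restricted forms, Cox4i2 (a form known from lung and known to rise with hypoxia), Cox6a2 and Cox8b (forms of heart and skeletal muscle), and Cox6b2, Cox7b2 and Cox8c had no peak in any library. Of their counterparts, Cox4i1 and Cox8a had a peak in every library and the next 3 in some. Cox6a1 had 27.2 in replicate 1 of hypoxic monoculture, 55.8 in replicate 2 of normoxic co-culture and 72.0 and 79.5 in hypoxic co-culture. Cox6b1 had 22.9 in replicate 1 of normoxic co-culture, and 54.4 and 60.04 in hypoxic co-culture, and Cox7b had a single peak, at 9.28 in replicate 1 of hypoxic co-culture. Cox6a1, Cox6b1 and Cox7b each had a peak in more libraries of hypoxic co-culture than of any other group. The mean share of all protein-coding genes with a peak was also highest there, at 43.2%. It was 24.1% in normoxic monoculture, 37.0% in hypoxic monoculture and 40.5% in normoxic co-culture. At equal list length Cox7b had a peak in 0 libraries. Neither Cox5b, with peaks in 3 libraries (25.3 to 74.99), nor Cox6c, with peaks in 2 (4.82 to 50.6), had one in both replicates of any group.

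Cox7a1 was the exception among the tissue-restricted forms. It encodes the form of subunit 7a that is known from heart and skeletal muscle, and it lies at chr7:30184171-30186030 on the plus strand. It had a peak in both hypoxic co-culture libraries, at percentiles of 82.5 and 82.5, and in none of the 6 others. The peaks had fold enrichments of 12.5 and 12.7 over the local background of their lists, and their summits lay 84 and 70 bp before the gene start. Neither peak was near the authors' threshold: their −log10 q values were 37.6 and 37.1, where the lowest in any list was 2.00. The other gene with an end in the window, Capns1, ends within 1 kb of the end of Cox7a1, away from these summits. The promoter printed above has 1 HRE core, at position 9 after the start on the minus strand, and no match to the NRF1, ETS or YY1 letters.

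Cox7a2, the form of most other tissues, had a peak throughout. It had no peak within 1 kb of the ends of the gene as annotated, because its promoter table start lies 4612 bp inside the nearer end. At that start it had a peak in all 8 libraries, at percentiles of 87.3 and 88.6 in normoxic monoculture, 81.0 and 80.1 in hypoxic monoculture, 91.9 and 95.0 in normoxic co-culture, and 71.5 and 70.8 in hypoxic co-culture. Hypoxic co-culture held its lowest values, as it also did for Cox7c, Ndufa4 and Atp5j2. Its printed promoter has no match to the NRF1, ETS, YY1 or HRE letters on either strand. Cox5a was a similar case, with a peak at a start 3904 bp inside the gene in 5 libraries (13.4 to 76.7), among them all 4 co-culture libraries and 1 monoculture library.

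**Figure D3:**
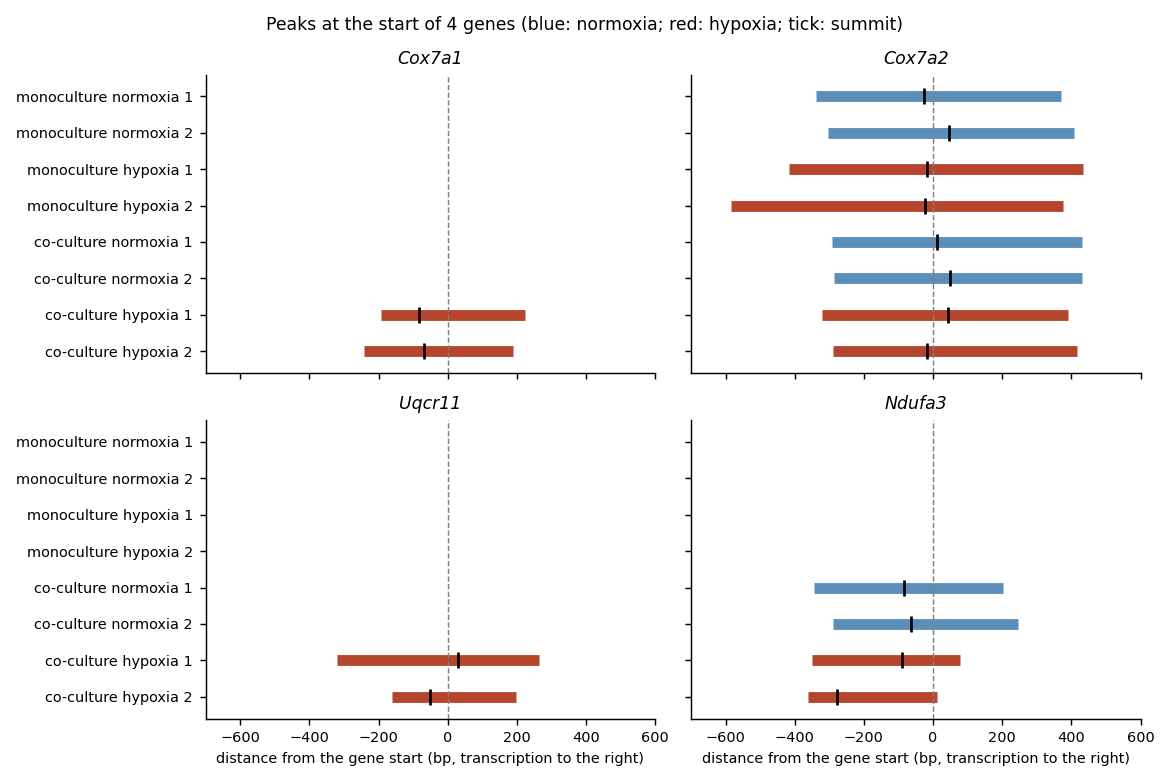
Peaks at the starts of Cox7a1, Cox7a2, Uqcr11 and Ndufa3 in the 8 libraries, with distance from the gene start in bp on the horizontal axis, bars for the extent of each peak (blue in normoxia, red in hypoxia) and ticks for summits. Cox7a1 and Uqcr11 have bars in the 2 hypoxic co-culture libraries alone, Ndufa3 in the 4 co-culture libraries, and Cox7a2 in all 8.

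Complex V, the ATP synthase, supplied 17 genes, with 9 in every library, 7 in some and 1 in none. The counts were 11 and 11 in normoxic monoculture, 14 and 14 in hypoxic monoculture, 15 and 16 in normoxic co-culture, and 16 and 14 in hypoxic co-culture. Atp5g1, one of 3 genes for the membrane ring subunit c, had the strongest peaks of all 89 genes by its lowest percentile, with 98.9 and 97.2 in normoxic monoculture, 97.0 and 95.8 in hypoxic monoculture, 98.7 and 98.1 in normoxic co-culture and 99.2 and 98.2 in hypoxic co-culture. Of the other genes for subunit c, Atp5g2 had a peak in every library (60.2 to 96.3) and Atp5g3 in 6 (24.4 to 61.3). Of the catalytic core, Atp5b, which encodes the beta subunit, had 46.8 and 30.7 in normoxic monoculture, 38.0 and 54.1 in hypoxic monoculture, 79.9 and 78.2 in normoxic co-culture and 89.4 and 89.6 in hypoxic co-culture, and the alpha subunit gene Atp5a1 ranked lower throughout (11.5 to 48.7). Atp5pb (68.5 to 92.2), Atp5j2 (66.8 to 91.9), Atp5mpl (57.3 to 88.0) and Atp5md (55.7 to 88.1) also had a peak in every library. Atp5l had one in 7 (8.58 to 60.5) and Atp5o, which joins the catalytic head to the side stalk, in 4 (31.9 to 60.2). Atp5e had a peak in 7 libraries at 83.7 to 97.7 and none in replicate 2 of hypoxic co-culture. Atp5d had none at its ends, and at a start 3513 bp inside the gene it had a peak in 6 libraries (9.56 to 85.9), all but those of normoxic monoculture.

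**Figure D4:**
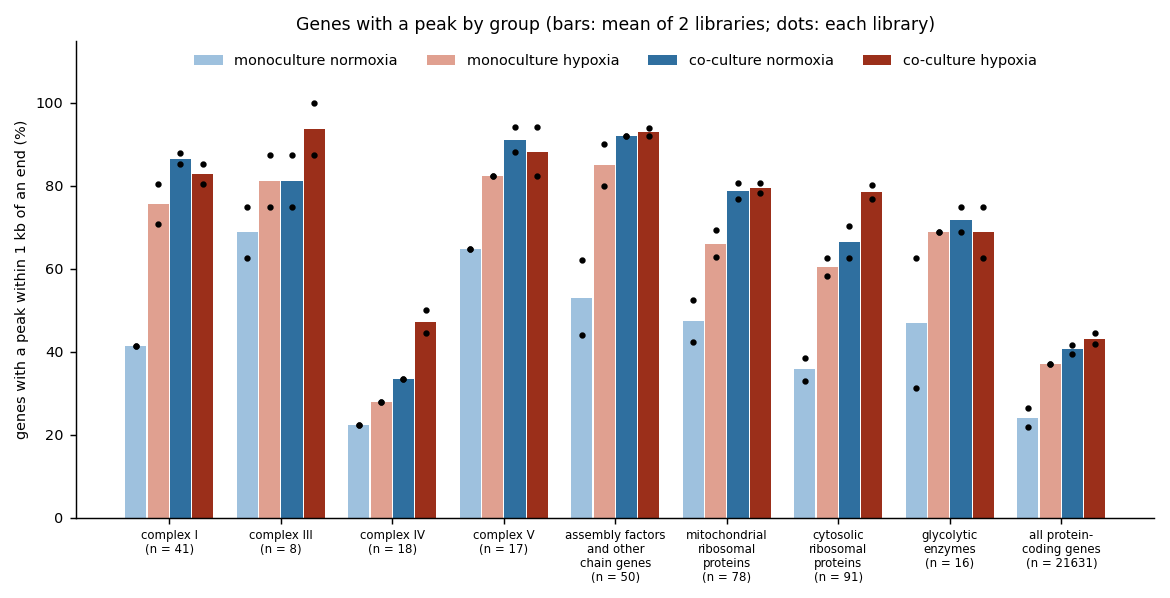
Share of genes with a peak (vertical axis, %) by group for the larger complexes and for comparison lists, with bars for the mean of 2 libraries and dots for each library. Complex IV has the lowest bars of the complexes in every group, from 22.2% in normoxic monoculture to 47.2% in hypoxic co-culture, and complex I rises from 41.5% to 75.6% or more outside normoxic monoculture.

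For the contrasts, a gain was called where a gene had a peak in each library of the first-named group and in no library of the other, and a loss in the reverse case. Some counts below leave out a library. This loosens the rule for every gene, and no share of all genes is given beside those counts, so they are not read as a result about the subunit genes. With hypoxia in monoculture, 13 of the 89 genes (14.6%) were gained, against 6.81% of all protein-coding genes, and 0 were lost, against 0.111%. Without replicate 2 of hypoxic monoculture 1 gene met the rule for a loss. With co-culture in normoxia, 19 genes (21.3%) were gained, against 8.96%, and 0 were lost, against 0.0185%. Both contrasts are set against the same 2 normoxic monoculture libraries, whose lists were the shortest. The 13 genes of the first contrast met the rule in both (14.6%, against 4.85% of all genes, where 1049 of 1473 did), and 10 of them had a peak in all 6 libraries outside normoxic monoculture (11.2%, against 4.44% of all genes).

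By complex, the 13 genes were 10 of complex I (24.4%), 1 of complex II and 2 of complex V (11.8%), and the 19 were 14 (34.1%), 1 and 4 (23.5%). Complexes III and IV, with 8 and 18 genes, gave none, and at the shares of all genes given above so few genes would give few calls. Ndufv1 encodes the subunit that binds NADH and had 51.3 and 22.3 in hypoxic monoculture, 76.0 and 61.9 in normoxic co-culture and 76.1 and 92.3 in hypoxic co-culture. Ndufs7, which carries the last iron-sulfur cluster before ubiquinone, had 40.7 and 36.1 in hypoxic monoculture, 38.7 and 15.2 in normoxic co-culture and 86.8 and 78.5 in hypoxic co-culture. Ndufs4, an accessory subunit whose loss is a known cause of Leigh syndrome, had 17.4 and 35.0 in hypoxic monoculture, 35.8 and 40.1 in normoxic co-culture and 14.8 in replicate 1 of hypoxic co-culture. Ndufv1 and Ndufs7 had their highest value in hypoxic co-culture, and Ndufs4 stayed in the lower part of every list.

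The other accessory subunits of complex I gained in both contrasts fell into stronger and weaker peaks. Ndufa10 had 56.2 and 45.1 in hypoxic monoculture, 53.2 and 64.3 in normoxic co-culture and 68.3 and 90.4 in hypoxic co-culture. Ndufa13, also known as Grim19, had 39.4 and 62.0 in hypoxic monoculture, 54.4 and 66.1 in normoxic co-culture and 75.1 and 83.5 in hypoxic co-culture, in a window shared with ends of Tssk6 and Yjefn3. Its best peaks lay at different sites: the 4 summits of the hypoxic libraries were at −1275 to −1183 bp from its start and those of normoxic co-culture at 281 and 289 bp, so its values in these groups belong to different peaks. Ndufb2 had 30.6 and 63.5 in hypoxic monoculture, 56.9 and 79.5 in normoxic co-culture and 72.6 and 72.3 in hypoxic co-culture. Ndufa10, Ndufa13 and Ndufb2 had most of their values above the middle of the list. Ndufb8 had 18.9 and 15.2 in hypoxic monoculture, 23.6 and 29.7 in normoxic co-culture and 23.2 and 25.1 in hypoxic co-culture. Ndufc2 had 15.0 and 13.5 in hypoxic monoculture, 42.8 and 26.9 in normoxic co-culture and 11.6 and 20.6 in hypoxic co-culture. Ndufb8 and Ndufc2 stayed in the lower part of every list, and neither had a peak in any of the reduced lists. Ndufb9 had 16.1 and 21.5 in hypoxic monoculture, 58.0 and 59.6 in normoxic co-culture and 71.5 and 68.8 in hypoxic co-culture, so that its co-culture values were all above its monoculture ones. Ndufc1 had 34.0 and 66.4 in hypoxic monoculture, 48.1 and 57.7 in normoxic co-culture and 69.6 in replicate 2 of hypoxic co-culture.

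In complex V, Atp5c1, the central stalk subunit gamma, had 18.6 and 32.3 in hypoxic monoculture, 76.1 and 69.7 in normoxic co-culture and 16.2 in replicate 1 of hypoxic co-culture. Atp5g3 had 24.4 and 27.5 in hypoxic monoculture, 29.1 and 28.2 in normoxic co-culture and 61.3 and 24.96 in hypoxic co-culture. The Atp5c1 values were highest in normoxic co-culture, and the Atp5g3 values were low but for replicate 1 of hypoxic co-culture. The 6 genes that co-culture added in normoxia were Ndufa3, Ndufa9, Ndufa12, Ndufb3, Atp5h and Atp5k. Ndufa9 had 21.6 and 17.9 in normoxic co-culture, and 11.6 in replicate 1 of hypoxic co-culture. Ndufa12 had 3.42 in replicate 2 of hypoxic monoculture, 72.5 and 21.1 in normoxic co-culture and 64.1 and 47.5 in hypoxic co-culture, and Ndufb3 had 3.42 in replicate 2 of hypoxic monoculture, 28.7 and 23.2 in normoxic co-culture and 45.8 and 32.3 in hypoxic co-culture. Ndufa12 and Ndufb3 had no peak in replicate 1 of hypoxic monoculture, which kept them out of the first contrast. Atp5h had 47.8 in replicate 1 of hypoxic monoculture, 56.5 and 57.2 in normoxic co-culture and 53.4 and 76.3 in hypoxic co-culture. Atp5k had 12.9 in replicate 2 of hypoxic monoculture, 45.9 and 46.5 in normoxic co-culture and 36.6 and 36.2 in hypoxic co-culture.

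At equal list length none of the 13 genes was gained with hypoxia in monoculture, against 1.11% of all genes. Then 4 genes, Atp5b, Ndufb5, Ndufb7 and Sdhd, were lost (4.49%, against 2.8%). Of the 19 genes gained with co-culture in normoxia, 7 were still gained (7.87%, against 2.34%) and none was lost, against 0.472%. These 7 were Atp5c1, Atp5h, Ndufa3, Ndufb2, Ndufb9, Ndufv1 and Sdhc. The gains with hypoxia in monoculture were thus seen only with lists of unequal length, and those with co-culture in normoxia were fewer at equal length. Equal length fixes the number of peaks, so it would also remove gains that occur at many sites. Of the 7, all but Ndufb2 share their window with an end of another protein-coding gene.

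In co-culture, hypoxia against normoxia gained 3 of the 89 genes (3.37%, against 1.81%) and lost 0, against 0.559%. The gained genes were Cox7a1, Ndufa7 and Uqcr11. Uqcr11, a small subunit of complex III, had 22.9 and 67.6 in hypoxic co-culture, with summits 31 bp after and 52 bp before its start, and no other gene end in its window. Ndufa7 had 42.9 and 48.9 in hypoxic co-culture, in a window shared with the ribosomal protein gene Rps28. The Cox7a1 peaks ranked above those of both. The counts depended on single libraries: 5 genes were gained without replicate 2 of normoxic co-culture, and 5 were lost without replicate 1 of hypoxic co-culture. Leaving out replicate 1 of normoxic co-culture or replicate 2 of hypoxic co-culture gave 1 loss each. At equal list length 4 genes were gained, Cox7a1, Ndufb4, Ndufs7 and Uqcr10 (4.49%, against 2%), and 4 were lost, Atp5c1, Ndufa3 and Ndufb7 among them (4.49%, against 1.78%). Cox7a1 was the 1 gene gained under both list lengths.

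In hypoxia, co-culture against monoculture gained 5 genes (5.62%, against 3.75%) and lost 0, against 0.33%. These were the 3 genes above, Ndufa3 and Cox6b1. Without replicate 1 or replicate 2 of hypoxic monoculture the gains were 9 and 11. There were 4 losses without replicate 1 of hypoxic co-culture, and 1 without replicate 2 of hypoxic co-culture or replicate 1 of hypoxic monoculture. At equal list length 11 genes were gained (12.4%, against 5.04%), namely Atp5b, Cox6a1, Cox7a1, Ndufa10, Ndufa13, Ndufb4, Ndufb5, Ndufb9, Ndufs7, Ndufv1 and Uqcr10, and 1 was lost (1.12%, against 0.435%). Cox7a1 was again the 1 gene gained under both. The contrasts of hypoxic co-culture with normoxic co-culture and with hypoxic monoculture share the hypoxic co-culture libraries.

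Across all 8 libraries, no respiratory chain gene separated the 4 hypoxic from the 4 normoxic libraries in either direction, against 0.291% of all genes gained and 0.00925% lost. Ndufa3, an accessory subunit of complex I, separated the 4 co-culture from the 4 monoculture libraries (1.12%, against 1.23%), and none was lost, against 0%. It had 65.2 and 56.4 in normoxic co-culture, and 40.6 and 25.8 in hypoxic co-culture, in a window shared with an end of Tfpt. The share was near that of all genes. Without replicate 2 of hypoxic monoculture 4 genes met the rule, and without replicate 1 of that group, replicate 2 of normoxic co-culture or replicate 2 of hypoxic co-culture 2 did. At equal list length oxygen gained none (against 0.0786%) and lost Ndufb7 (1.12%, against 0.509%), and co-culture gained Ndufb9 and Ndufv1 (2.25%, against 0.661%) and lost none (against 0.0185%). As deposited, Ndufb9 and Ndufv1 also had peaks in hypoxic monoculture, at the values given above.

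Most best peaks of respiratory chain genes sat at gene starts. Peaks were taken only within 1 kb of a gene end, so nearness to an end is partly built in. The same shares over all genes are not given here. Of 480 best peaks, 398 were at genes whose strand the promoter table gives, and 365 of these (91.7%) had a summit within 300 bp of a start. The median summit lay 61 bp before the start (quartiles at −127 and −12 bp), and the median width was 614.5 bp (282 to 1436). Counted at the table starts alone, 26 of 72 genes (36.1%) had a peak in every library, against 18.7% of 17274 protein-coding genes. The window mattered for few genes: Atp5g3 had a peak in 1 library within 500 bp and in 6 within 1 kb, and Atp5h had a peak in 5 within 1 kb and in 7 within 2 kb.

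Respiratory chain genes often had a close neighbour. For 49 of the 89 (55.1%) the window held an end of another protein-coding gene, against 25.1% of all genes. Of these 49, 21 (42.9%) had a peak in every library, against 10 of the 40 without such a neighbour (25%). Over all protein-coding genes the shares were 28.5% and 13.9%, so the subunit genes were above other genes in both classes. Where the ends of both genes lie close together, a peak cannot be assigned to either. Atp5j, which encodes a coupling subunit of the ATP synthase, shares its start region with Gabpa, the gene for the ETS factor named above, and the best peak of both was the same in all 8 libraries (70.1 to 95.0).

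Respiratory chain promoters carried the letters of the known regulators more often than other promoters. Letters were searched on both strands of the 300 bp windows: CGCATGCG for the NRF1 core, CCGGAAG for ETS, AAGATGGC for YY1, GGGCGG for the GC box and ACGTG for the HRE core. Of 77 promoters of 72 respiratory chain genes, 10 (13.0%) held the NRF1 core, against 2.53% of the 21045 promoters of protein-coding genes. The ETS letters were in 17 (22.1%, against 11.7%) and the YY1 letters in 10 (13.0%, against 3.07%), and 31 (40.3%, against 16.1%) held at least 1 of these. The GC box was in 31 (40.3%, against 46.7%) and the HRE core in 20 (26.0%, against 21.1%). The median GC content was 57.7%, against 56.7%. A match shows letters in the reference, not a bound site.

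Part of this pattern was shared by other genes with a peak in every library. Their promoters held the ETS letters in 20.4%, the GC box in 65.1% and the HRE core in 27.5%, but the NRF1 core in 4.12% and the YY1 letters in 4.63%. The 10 promoters with an NRF1 core were those of Atp5g2, Atp5j, Atp5k, Atp5l, Cox6a1, Cycs, Ndufa8, Ndufa11, Uqcr11 and Uqcrc1. Counted by peaks at gene ends, 4 of the 27 promoters of subunit genes with a peak in every library held the core. So did 6 of the 41 of genes with a peak in some libraries and 0 of the 9 of genes with none. Those 9 include promoters of Cox7a2, Cox5a and Atp5d, which had peaks at a table start as described above. Among the sequences printed above, Atp5j held the NRF1, YY1 and ETS letters at 147, 88 and 61 bp before its start, and Uqcr11 held the ETS letters at 66 bp and the NRF1 core at 5 bp before its start. Cycs held the NRF1 core 61 bp before its start, and Ndufa3 the YY1 letters 22 bp after its start.

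**Figure D5:**
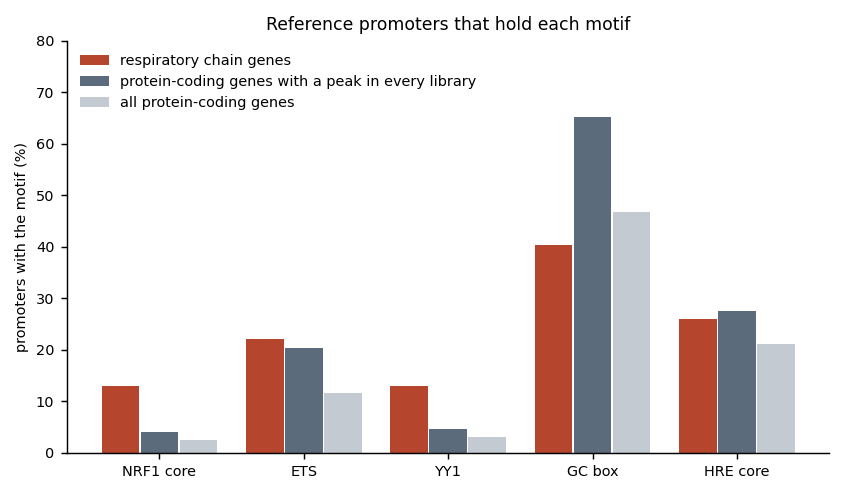
Share of promoters (vertical axis, %) holding each of 5 motifs in the reference sequence, for respiratory chain genes, for protein-coding genes with a peak in every library and for all protein-coding genes. The respiratory chain bars exceed both others for the NRF1 core and YY1 (13.0% each), and are below both for the GC box (40.3%). For ETS they are also above both, by less over the genes with a peak in every library (22.1%, against 20.4% and 11.7%).

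Other gene lists were counted in the same way, beside the 34.8% of the subunit genes and the 17.6% of all genes with a peak in every library. Of 50 assembly factors and other chain genes, 18 (36.0%) had a peak in every library and 1, Atpaf2, had none. Of 78 mitochondrial ribosomal protein genes, 27 (34.6%) had one in every library, and of 91 cytosolic ribosomal protein genes 23 (25.3%). Of 16 glycolytic enzyme genes 5 (31.2%) did. With hypoxia in monoculture 8 assembly genes (16.0%), 8 mitochondrial ribosomal protein genes (10.3%), 16 cytosolic ones (17.6%) and 1 glycolytic gene (6.25%) were gained, beside the 14.6% of the subunit genes. With co-culture in normoxia 18%, 15.4%, 16.5% and 6.25% of these lists in the same order were gained, beside 21.3%. With co-culture in hypoxia 4%, 10.3%, 14.3% and 0% were gained, beside 5.62%. With hypoxia in co-culture the shares were 2%, 3.85%, 6.59% and 0%, beside 3.37%. The subunit genes were thus highest of these lists with co-culture in normoxia and in the middle in the other contrasts. At equal list length 21.3% of the subunit genes and 11.1% of all genes had a peak in every library. The other lists then had 18%, 17.9%, 12.1% and 18.75% in the same order. The differences between lists were not tested.

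Of the 14 regulators of mitochondrial genes, Gabpa, Yy1, Esrra and Tfb1m had a peak in every library (28.6%, against 17.6% of all genes). Nrf1 had weak peaks in 3 libraries (6.97 to 25.5), and Gabpb1, which encodes the partner of GABPA, had none. Gabpa had the values of Atp5j, and Yy1 ranged from 91.8 to 99.3. Tfam, which encodes the factor that packages and transcribes mitochondrial DNA, had a peak in all 6 libraries outside normoxic monoculture, at 79.7 and 88.4 in hypoxic monoculture, 86.0 and 94.9 in normoxic co-culture and 87.4 and 78.2 in hypoxic co-culture. Polg, the polymerase that copies mitochondrial DNA, had a peak in the 2 hypoxic co-culture libraries alone, at 89.9 and 92.2, a pattern that 0.962% of all protein-coding genes had. Ppargc1a, which encodes the coactivator PGC-1alpha, had a peak in 1 library of each co-culture group (37.7 and 33.1).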

How the data were processed

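ATAC-seq peak lists of 8 BV2 libraries were used, 2 biological replicates in each of 4 groups, with groups taken from the sample titles. The submitters' processing notes name Trimmomatic 0.36, HISAT2 2.1.0, Picard, SAMtools, deepTools, MACS2 2.1.1.2 and the mm10 build. Their parameters, any Tn5 shift and the filters are not given in the sources used here. The authors deposited 1 list per library, so peaks were not called on pooled replicates. The deposited score, fold enrichment (a ratio to the local background), −log10 p, −log10 q and summit offset belong to each list, and were used only within it.

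Genes and promoters came from RefSeq tables of GRCm38.p6, the assembly that mm10 names. Presence was at least 1 bp of a peak within 1 kb of either gene end. Percentiles are ranks by the deposited −log10 p within a list. No p was computed, since the genes were chosen with earlier results known. A permutation test of 2 libraries against 2 also allows no p below 0.33. Background counts are over all 21631 protein-coding genes. The alternatives were other windows, the start alone, summits, lists of equal length, −log10 q of at least 5, no peak wider than 10 kb, ranks by fold, each library left out, and no shared windows. The search over whole genes was added after the data had been seen.

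The members, gene lists and rules were chosen with earlier results of these data known. Values in every library are given for complex IV and Ndufa4 isoform genes, complex II genes and Cycs, for genes called gained or lost in the deposited lists, and for the gene with the highest minimum percentile per complex. The values of 1 gene are not reported here, though it is in the counts. Genes with no peak are named, and others with values were picked after these were seen. The counting was tested on simulated lists. Python 3.11.15, numpy 2.4.6, pandas 2.3.3 and matplotlib 3.10.9 were used.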

Additional observations from a re-analysis of the deposited data

How the results depend on the processing

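Of 270 recomputed values, 46 could not change by construction. Of the other 224, 188 stayed within 1.5 times (counts) or 1 SD (percentiles) and 36 did not. Lists of equal length moved the most. They gave 19 genes with a peak in every library and 24 with none, 0 gained and 4 lost with hypoxia in monoculture, 4 lost with hypoxia in co-culture, 7 gained with co-culture in normoxia, 11 gained and 1 lost with co-culture in hypoxia, 1 lost with hypoxia over all 8 libraries and 2 gained with co-culture over all 8. The median percentile of respiratory chain genes minus that of all genes was −7.31 in those lists and 6.32 with ranks by fold. Counting only genes whose window holds no end of another gene, which leaves fewer genes by construction, gave 10 in every library, 7 in none, 8 gained with hypoxia in monoculture, 1 with hypoxia in co-culture, 11 and 2 with co-culture in normoxia and in hypoxia, and 0 with co-culture over all 8. Starts alone left 5 genes with none. The stricter threshold gave 3 genes and whole genes 2 gained with co-culture over all 8 libraries.

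Leaving out each library in turn, which loosens the rule by construction, gave 0 to 1 lost with hypoxia in monoculture, 3 to 5 gained and 0 to 5 lost with hypoxia in co-culture, 5 to 11 gained and 0 to 4 lost with co-culture in hypoxia, and 1 to 4 gained with co-culture over all 8. No paired analysis was possible because no label ties the replicate numbers of different groups to a shared culture or day, and no result comes from a test. Read depth is unknown here, and a gene with no peak may have one below the threshold.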
